A study of Homo sapiens with 10 samples.

Results

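The 10 genes described here, 5 inhibitors of cyclin-dependent kinases (CDKN1A, CDKN1B, CDKN2A, CDKN2B and CDKN2C) and 5 cyclins of the D and E types (CCND1, CCND2, CCND3, CCNE1 and CCNE2), were taken by name from the 58735 genes of a table of raw RNA-seq counts. The table covers 6 libraries of A253, a cell line from a human salivary gland tumour (squamous cell carcinoma), grown in DMEM with fetal bovine serum. The control (2 libraries) carried a guide RNA against dTomato, and Cl1 and Cl10 (2 libraries each) carried a pair of guides that remove exon 2 of DUSP1, a phosphatase that switches off the MAP kinases ERK, JNK and p38. The study describes the deletion as heterozygous, with DUSP1 protein not detected by western blot in either clone. Each of Cl1 and Cl10 is 1 clone, so that an effect of the deletion and a property of the clone cannot be told apart, and both were compared with the same 2 control libraries. The clones were grown from single cells, and the study does not say that the control was. For changes shared by both clones, cloning and the deletion therefore cannot be told apart either. Nothing in the labels says that the 2 libraries of a group came from separate cultures, and p-values then measure only the spread between these libraries, which may be technical.

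A cell commits to DNA synthesis when cyclins of the D type with CDK4 or CDK6, and then cyclins of the E type with CDK2, phosphorylate the retinoblastoma protein and its relatives, which releases the E2F transcription factors. The INK4 inhibitors (CDKN2A, CDKN2B, CDKN2C) block CDK4 and CDK6, and the CIP/KIP inhibitors (CDKN1A, CDKN1B) mainly block CDK2 complexes. Growth signals through the MAP kinases are known to raise CCND1, and the genes of both E cyclins are themselves among the targets of E2F. In squamous carcinomas this switch is frequently altered, through loss of CDKN2A or gain of CCND1.

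Library totals ran from 47016495 to 70986593 counts, and the members were read with between 137 and 53230 counts a library, so that counting error was small for all 10. All 10 passed the filter on low counts in every comparison. DUSP1 itself fell in both clones, by 1.07 (Cl1) and 0.59 (Cl10) on the log2 scale. The 10 squamous and basal epithelial markers summed to between 15152 and 15159 CPM (counts scaled to library size) in the control, 17457 to 17784 in Cl1 and 15726 to 16322 in Cl10, and their part in the results below was not tested. Fibroblast markers summed to at most 51.1 CPM, leukocyte markers to at most 17.2 and endothelial markers to at most 8.06 in any library.

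Among the cyclins, CCND2 fell to 18.5% of the control in Cl1 and to 21.1% in Cl10, CCND1 rose to 174% and 163%, and CCNE2 rose to 197% and 350%. CCNE1 rose in Cl10, to 176%, and did not pass the test in Cl1. Among the inhibitors the clones went apart: CDKN1A rose in Cl1 and fell in Cl10, CDKN2A and CDKN2B fell in Cl1, and CDKN2C rose in Cl10. At an adjusted p under 0.05 from edgeR's quasi-likelihood test, 6 of the 10 members passed in Cl1 (3 higher, 3 lower), where 25.1% of all 20153 genes tested did (12.4% higher, 12.8% lower). In Cl10 6 of the 10 also passed (4 higher, 2 lower), where 42.5% of 19875 genes did (20.6% higher, 21.8% lower). Here and below, the shares of all genes cover every gene tested and were not matched to the count levels of the members or lists. With a further limit of more than 2-fold, 1 member passed in Cl1 (CCND2) and 2 in Cl10 (CCND2 and CCNE2), where 7.54% and 13.4% of all genes did. Scaling by library totals alone moved the split of all genes in Cl1 from 2489 higher and 2575 lower to 1942 and 3191, and that of the members from 3 and 3 to 2 and 3, with CDKN1A no longer among them. Over all genes, more passed against the control without 1 control library, and fewer without 1 library of the clone. The number of members that passed moved as well, and is to be read beside that of all genes.

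**Figure D1:**
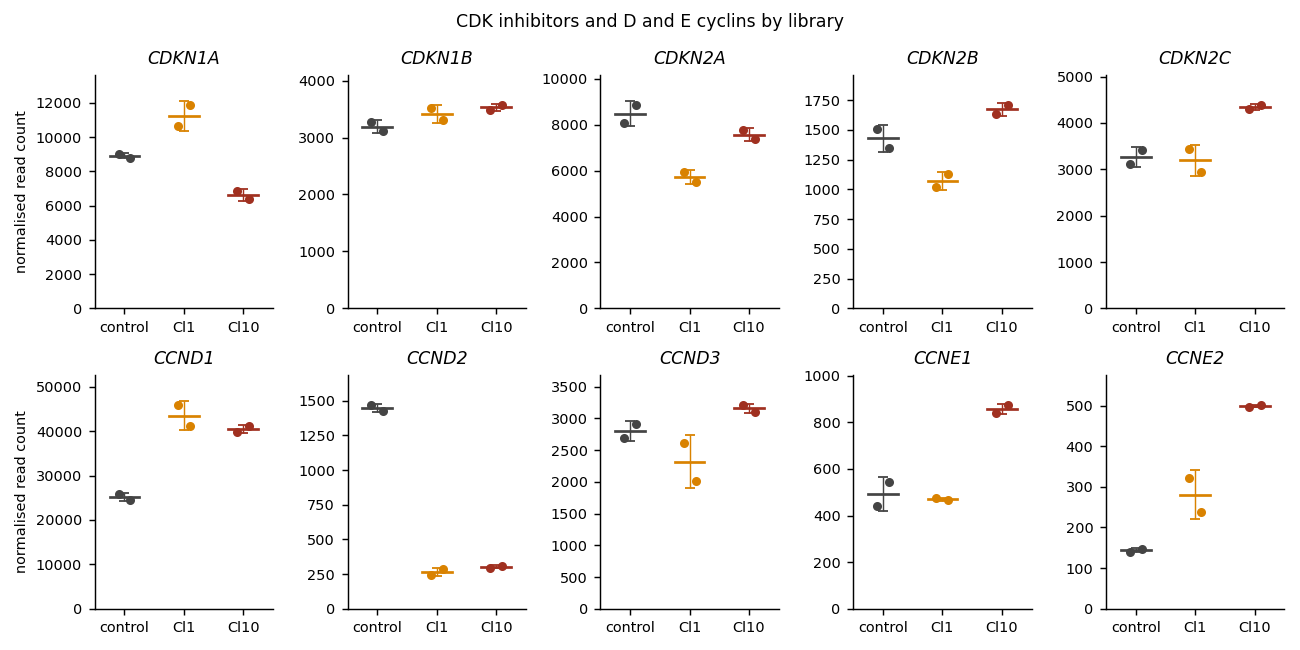
Normalised read counts (y axes, from 0) of the 10 genes in control, Cl1 and Cl10; points are the 2 libraries of each group, horizontal lines their mean and error bars the SD. CCND2 stands at 1427 and 1467 in the control and at or below 309.9 in all 4 clone libraries, while CDKN1A lies above the control in Cl1 and below it in Cl10.

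Cyclin D2 was the member with the widest separation. CCND2 (ENSG00000118971, hg38 chr12:4269771-4305353) had 1467 and 1427 normalised counts in the control, 242.8 and 287.3 in Cl1, and 294.3 and 309.9 in Cl10. All 4 clone libraries lay far below both control libraries. On the log2 scale the change was -2.44 for Cl1 (standard error 0.139, adjusted p = 2.28e-07) and -2.24 for Cl10 (standard error 0.0980, adjusted p = 3.41e-05). The 2 clones did not pass as different, with 0.20 on the log2 scale between them (95% confidence interval -0.11 to 0.50, adjusted p = 0.269). An antisense gene, CCND2-AS1, overlaps CCND2 but held between 18 and 56 raw counts in a library. A protein-coding gene on the same strand, ENSG00000285901, shares 31592 bases of the CCND2 span and held at most 3 raw counts. How reads that match both genes were counted was not stated.

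Cyclin D1, the D cyclin most directly tied to mitogenic signalling, moved the other way. CCND1 (ENSG00000110092, chr11:69641156-69654474) had 25829 and 24567 normalised counts in the control, 45829 and 41165 in Cl1, and 39920 and 41181 in Cl10. Again all clone libraries stood apart from the control, here above it. edgeR gave a log2 fold change of 0.80 for Cl1 (standard error 0.130, adjusted p = 0.000853) and 0.70 for Cl10 (standard error 0.0851, adjusted p = 0.000902). Between the clones the difference was -0.10 (95% confidence interval -0.24 to 0.05, adjusted p = 0.244). LTO1, an antisense neighbour whose span shares 1399 bases with CCND1, held between 14409 and 22235 raw counts, and since the strand setting of the counting was not stated, reads from the shared stretch cannot be told apart. The region itself was higher in the clones: the local median, that is the median log2 fold change of the 50 genes nearest to CCND1, was 0.23 in Cl1 and 0.38 in Cl10, and with it subtracted CCND1 was 0.57 in Cl1 (adjusted p = 0.00758) and 0.32 in Cl10 (adjusted p = 0.0233).

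Cyclin D3 did not pass against the control in either clone. CCND3 (ENSG00000112576, chr6:41934934-42050357) had 2690 and 2908 normalised counts in the control, 2618 and 2019 in Cl1, and 3205 and 3107 in Cl10. The Cl1 libraries lay below and the Cl10 libraries above both control libraries, by less than the test requires. This was a log2 fold change of -0.26 for Cl1 (95% confidence interval -0.53 to 0.02, adjusted p = 0.161) and 0.19 for Cl10 (-0.0029 to 0.38, adjusted p = 0.102). The clones themselves differed, with CCND3 higher in Cl10 than in Cl1 by 0.45 (standard error 0.0893, adjusted p = 0.00121), and their libraries did not overlap. In Cl1 CCND3 passed as lower with crossed replicate numbers as a block (-0.27, adjusted p = 0.0368). It was -0.32 without control replicate 1, -0.44 without Cl1 replicate 1 and -0.09 without Cl1 replicate 2. In Cl10 CCND3 passed after subtraction of its local median. It also passed when either control library was left out, runs in which more of all genes passed.

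Set side by side per length, as RPKM (reads scaled to exon length and library size), the D cyclins were mostly CCND1. It made up 88.8% ± 0.70 (SD, n = 2) of the summed RPKM of the 3 D cyclin genes in the control, 95.5% ± 0.37 in Cl1 and 93.6% ± 0.24 in Cl10. The share of CCND2 went from 3.04% to 0.349% and 0.415%, and that of CCND3 from 8.16% to 4.19% and 6.02%. The summed level was 104 RPKM in the control, 166 in Cl1 and 158 in Cl10. On this scale CCND1 went from 92.0 RPKM to 159 and 148, and CCND2 from 3.15 to 0.577 and 0.657. These shares depend on the length given to each gene. With the length of the canonical transcript in place of all exons, CCND3 held 18.3% in the control, 9.95% in Cl1 and 13.9% in Cl10, and CCND1 78.7%, 89.7% and 85.6%.

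**Figure D2:**
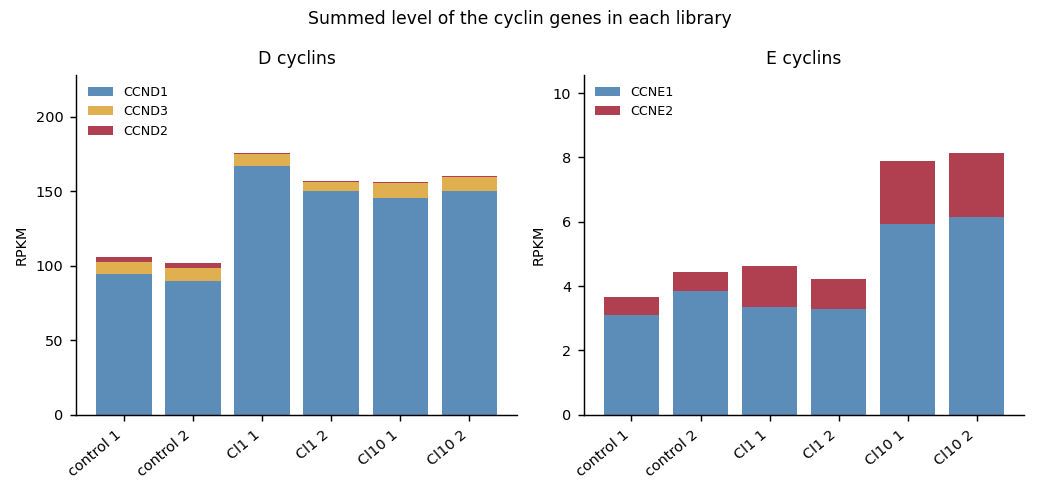
Level of the D cyclin genes (left) and E cyclin genes (right) in each of the 6 libraries, as stacked bars of RPKM with all exons as the length. CCND1 fills most of every left bar and is higher in the 4 clone libraries, while on the right the summed E cyclin level is higher in both Cl10 libraries than in the other 4.

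The E cyclins, which activate CDK2 at the entry into S phase, rose in Cl10, and CCNE2 also in Cl1. CCNE2 (ENSG00000175305) had 140.9 and 147.7 normalised counts in the control, 322.9 and 238.8 in Cl1, and 496.4 and 500.6 in Cl10. The 3 groups did not overlap and stood in the order control, Cl1, Cl10. Cl1 differed from the control by 0.98 on the log2 scale (standard error 0.188, adjusted p = 0.00249) and Cl10 by 1.81 (standard error 0.125, adjusted p = 0.000126). Cl10 exceeded Cl1 by 0.82 (standard error 0.136, adjusted p = 0.000283). CCNE2 shares parts of its span with INTS8 and NDUFAF6 on the other strand, which held between 1444 and 2818 and between 611 and 922 raw counts, more than CCNE2 itself, so a contribution of their reads cannot be told apart. Raw INTS8 counts were lower in all clone libraries than in the control, in the direction opposite to CCNE2, and those of NDUFAF6 were higher, in the direction of CCNE2 (log2 fold change 0.32 in Cl1 and 0.59 in Cl10).

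CCNE1 (ENSG00000105173, chr19:29811991-29824312) had 440.5 and 544.5 normalised counts in the control, 475.3 and 466.1 in Cl1, and 840.7 and 872.5 in Cl10. Cl1 lay between the control libraries, and both Cl10 libraries stood above the other 4. In Cl10 the log2 fold change was 0.82 (standard error 0.127, adjusted p = 0.00250), and Cl10 exceeded Cl1 by 0.87 (standard error 0.0925, adjusted p = 8.32e-06). In Cl1 it was -0.05 (95% confidence interval -0.37 to 0.28, adjusted p = 0.850). The summed E cyclin level was 4.05 ± 0.538 RPKM (SD, n = 2) in the control, 4.43 ± 0.281 in Cl1 and 8.02 ± 0.170 in Cl10, and CCNE2 supplied 14.2%, 24.9% and 24.6% of it. The 250 bases before the RefSeq start of CCNE1 (GRCh38.p14, chr19:29811741-29811990, plus strand) are shown because the clones differed in CCNE1. Capitals mark the GC box GGGCGG on either strand, a motif bound by SP factors.
CCNE1: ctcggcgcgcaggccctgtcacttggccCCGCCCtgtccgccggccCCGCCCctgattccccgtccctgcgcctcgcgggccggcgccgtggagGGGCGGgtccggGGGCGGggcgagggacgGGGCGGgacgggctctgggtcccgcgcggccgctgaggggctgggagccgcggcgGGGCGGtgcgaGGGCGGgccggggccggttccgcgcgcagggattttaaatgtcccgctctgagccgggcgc
This window holds 7 GC boxes, and 42.6% of the 35116 windows of the same length in the RefSeq promoter table hold at least 1. Also searched on both strands were TTTNNCGC (E2F), TGANTCA (AP-1), TGACGTCA (CRE) and CACGTG (E-box), present in 5.92%, 6.57%, 1.65% and 6.34% of all windows and not matched here.

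CDKN1A, which encodes p21, the best known p53-induced inhibitor of CDK2, was the only member that passed in opposite directions in the clones. CDKN1A (ENSG00000124762, chr6:36676460-36687337) had 9013 and 8801 normalised counts in the control, 10634 and 11869 in Cl1, and 6848 and 6378 in Cl10. The 3 groups did not overlap, with Cl1 above and Cl10 below the control. In log2 terms the change came to 0.35 for Cl1 (standard error 0.120, adjusted p = 0.0478) and -0.41 for Cl10 (standard error 0.0810, adjusted p = 0.00661). The difference of Cl10 from Cl1, -0.76 (standard error 0.0719, adjusted p = 2.88e-06), passed in every alternative run other than the 2-fold limit. The rise in Cl1 sat at the threshold and did not pass with the replicate number as a block (adjusted p = 0.118), with library totals alone as scaling (0.0999), without the filter on low counts (0.0530), after subtraction of its local median (0.0552), or without Cl1 replicate 1 or 2 (0.149 and 0.460), and the fall in Cl10 did not pass without Cl10 replicate 1 or 2 (0.0981 and 0.202). Its promoter window (chr6:36678464-36678713, plus strand) is shown with the same marking.
CDKN1A: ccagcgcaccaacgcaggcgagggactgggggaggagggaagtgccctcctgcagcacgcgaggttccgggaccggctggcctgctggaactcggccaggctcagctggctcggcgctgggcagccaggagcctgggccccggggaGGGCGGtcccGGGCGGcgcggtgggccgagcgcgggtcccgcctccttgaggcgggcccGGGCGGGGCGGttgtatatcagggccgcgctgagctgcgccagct
It holds 4 GC boxes, of which the last pair share a base, and no match to the other motifs.

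CDKN1B, which encodes p27, the inhibitor that accumulates in resting cells, was the most even of the members. CDKN1B (ENSG00000111276, chr12:12685498-12722369) had 3270 and 3109 normalised counts in the control, 3523 and 3306 in Cl1, and 3487 and 3570 in Cl10. It passed in none of the 3 comparisons by edgeR, with log2 fold changes of 0.11 in Cl1 (95% confidence interval -0.12 to 0.35, adjusted p = 0.474) and 0.16 in Cl10 (-0.02 to 0.35, adjusted p = 0.135). All 4 clone libraries lay above both control libraries, by little. In Cl10 CDKN1B passed after subtraction of its local median (0.30, adjusted p = 0.0208). It also passed without control replicate 1 or 2, runs in which more of all genes passed. Cl10 differed from Cl1 by 0.05 (95% confidence interval -0.08 to 0.18, adjusted p = 0.509).

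The INK4 genes were lower in Cl1 at one locus and higher in Cl10 at another. CDKN2A and CDKN2B lie next to each other on the minus strand of chromosome 9, and CDKN2C lies on chromosome 1. CDKN2A (ENSG00000147889, chr9:21967752-21995301) had 8081 and 8851 normalised counts in the control, 5945 and 5519 in Cl1, and 7753 and 7360 in Cl10. The Cl1 libraries were the lowest, and the Cl10 libraries lay between them and the control. Against the control, Cl1 differed by -0.55 on the log2 scale (standard error 0.115, adjusted p = 0.00439) and Cl10 by -0.15 (95% confidence interval -0.35 to 0.06, adjusted p = 0.214). Without Cl1 replicate 1 or 2, the fall in Cl1 missed the threshold (adjusted p = 0.0555 and 0.0965). In Cl10 CDKN2A passed as lower with the local median subtracted (log2 fold change -0.36, adjusted p = 0.0156). It also did without control replicate 1, a run in which more of all genes passed. Cl10 lay above Cl1 by 0.40 (standard error 0.0595, adjusted p = 0.000122).

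CDKN2A encodes the INK4 inhibitor p16INK4a from one start and, from a start further upstream, p14ARF, which stabilises p53 through MDM2. A count per gene does not separate these products. Both promoter windows are shown for that reason, the first at the upstream start (chr9:21995325-21995574) and the second at the p16INK4a start (chr9:21974858-21975107), both on the minus strand.
CDKN2A, upstream start: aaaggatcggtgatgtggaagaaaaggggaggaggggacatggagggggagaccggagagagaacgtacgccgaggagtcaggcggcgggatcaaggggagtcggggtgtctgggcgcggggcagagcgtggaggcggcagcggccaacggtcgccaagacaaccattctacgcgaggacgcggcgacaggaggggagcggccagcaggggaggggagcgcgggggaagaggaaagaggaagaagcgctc
CDKN2A, p16INK4a start: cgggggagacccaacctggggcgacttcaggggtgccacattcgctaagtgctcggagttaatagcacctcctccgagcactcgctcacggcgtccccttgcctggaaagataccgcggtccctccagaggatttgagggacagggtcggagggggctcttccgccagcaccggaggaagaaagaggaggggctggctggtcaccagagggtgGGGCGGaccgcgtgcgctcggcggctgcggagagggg
The second holds 1 GC box and the first none, and neither holds a match to the other motifs.

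CDKN2B (ENSG00000147883, chr9:22002903-22009305), which encodes p15INK4b, an inhibitor known as a target of TGF-beta, had 1506 and 1350 normalised counts in the control, 1019 and 1127 in Cl1, and 1634 and 1708 in Cl10. Cl1 stood below and Cl10 above both control libraries. On the log2 scale the change was -0.40 for Cl1 (standard error 0.120, adjusted p = 0.0288) and 0.24 for Cl10 (95% confidence interval 0.03 to 0.45, adjusted p = 0.0646), and Cl10 exceeded Cl1 by 0.64 (standard error 0.0800, adjusted p = 2.95e-05). CDKN2C (ENSG00000123080, chr1:50960745-50974634), which encodes p18INK4c, had 3112 and 3426 normalised counts in the control, 3434 and 2951 in Cl1, and 4292 and 4386 in Cl10. Only the Cl10 libraries stood apart. edgeR gave a log2 fold change of 0.43 for Cl10 (standard error 0.0859, adjusted p = 0.00733) and -0.02 in Cl1 (95% confidence interval -0.27 to 0.23, adjusted p = 0.925), and Cl10 exceeded Cl1 by 0.44 (standard error 0.0674, adjusted p = 0.000146). Without Cl1 replicate 1 or 2 the fall of CDKN2B did not pass (adjusted p = 0.301 and 0.0786), nor without Cl10 replicate 1 or 2 the rise of CDKN2C (adjusted p = 0.0721 and 0.109). CDKN2B passed as higher in Cl10 without control replicate 1 or 2, runs in which more of all genes passed.

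Genes around CDKN2A and CDKN2B also had medians away from 0. Of the tested genes within 2 Mb of CDKN2A, the median log2 fold change was -0.15 in Cl1 (23 genes) and 0.55 in Cl10 (25 genes), and for Cl10 against Cl1 it was 0.55 (24 genes). These genes spread widely, from -1.33 to 3.36 in Cl1 and from -1.10 to 3.84 in Cl10. Over the 50 genes nearest to CDKN2A the median was -0.20 in Cl1 and 0.22 in Cl10. MTAP, which encodes a purine salvage enzyme and lies beside CDKN2A, fell by 0.51 in Cl1 (adjusted p = 0.00471) and rose by 0.63 in Cl10 (adjusted p = 0.00115). With the median of the 50 nearest genes subtracted, CDKN2B no longer passed in Cl1 (log2 fold change -0.20, adjusted p = 0.253), and the difference of CDKN2A between the clones went from 0.40 to 0.07 (adjusted p = 0.353). CDKN2A in Cl1 still passed after the subtraction, at -0.35 (adjusted p = 0.0444). The part of the neighbourhood in the values of CDKN2A and CDKN2B was not tested further. Around CCND2 and CDKN1A, by contrast, the genes within 2 Mb had medians of 0.12 and -0.01 in Cl1 and -0.13 and 0.05 in Cl10. Only 5 genes within 2 Mb of CCNE1 were tested in Cl10, with a median of 0.37 (0.057 to 0.81). The median of the 50 genes nearest to CCNE1 was -0.05 in Cl10. The part of these neighbours in the rise of CCNE1 was not tested.

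**Figure D3:**
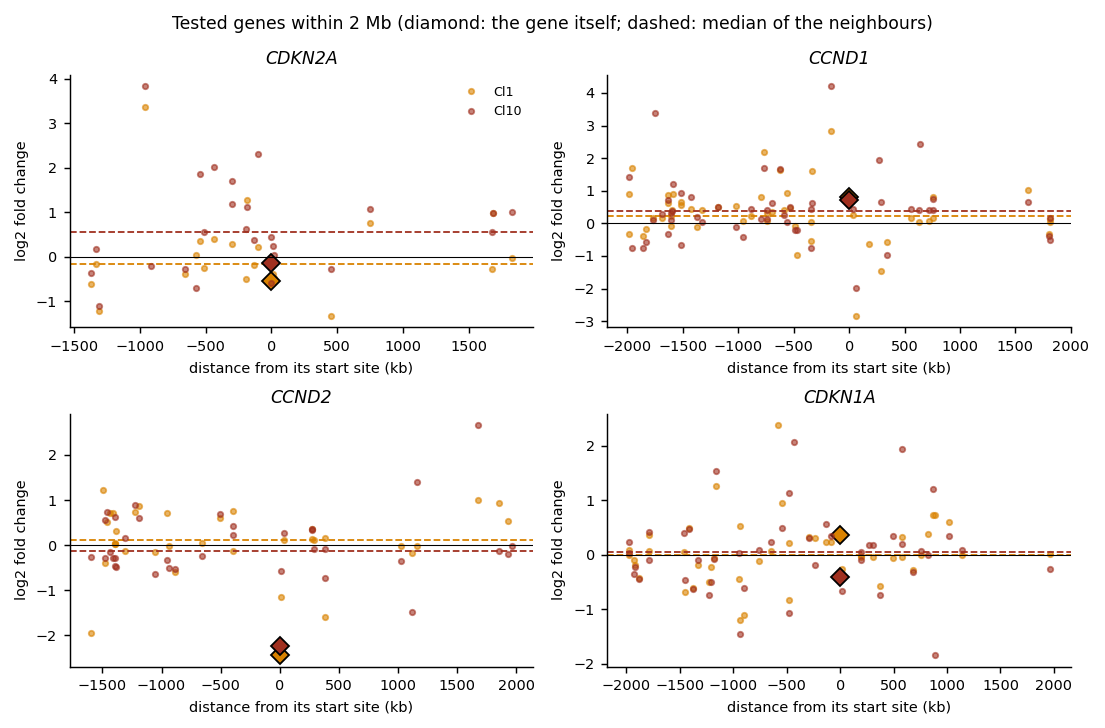
Log2 fold change against control (y axes) of the tested genes within 2 Mb of 4 members, by distance from the member's start in kb (x axes), for Cl1 (orange) and Cl10 (red); diamonds are the member itself and dashed lines the medians of its neighbours. The medians part from 0 around CDKN2A in Cl10 (0.55) and around CCND1 (0.23 in Cl1, 0.38 in Cl10), and CCND2 lies far below its neighbours in both clones.

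Compared directly, the clones differed in most members. In Cl10 against Cl1, 7 of the 10 members passed, where 49% of all 19818 genes tested did (24.9% higher, 24.1% lower). CDKN2A, CDKN2B, CDKN2C, CCND3, CCNE1 and CCNE2 were higher in Cl10 and CDKN1A was lower. CCND1, CCND2 and CDKN1B did not pass. After subtraction of their local medians CDKN1B (0.39, adjusted p = 0.000168) and CCND2 (0.45, adjusted p = 0.0190) were higher in Cl10, and without Cl1 replicate 2 CCND1 passed as lower (-0.17, adjusted p = 0.000157). No member differed more than 2-fold between the clones by edgeR (0 of 10, also 0 of 10 at an unadjusted p under 0.05 and 0 of 10 by DESeq2), where 10.8% of all genes did.

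**Figure D4:**
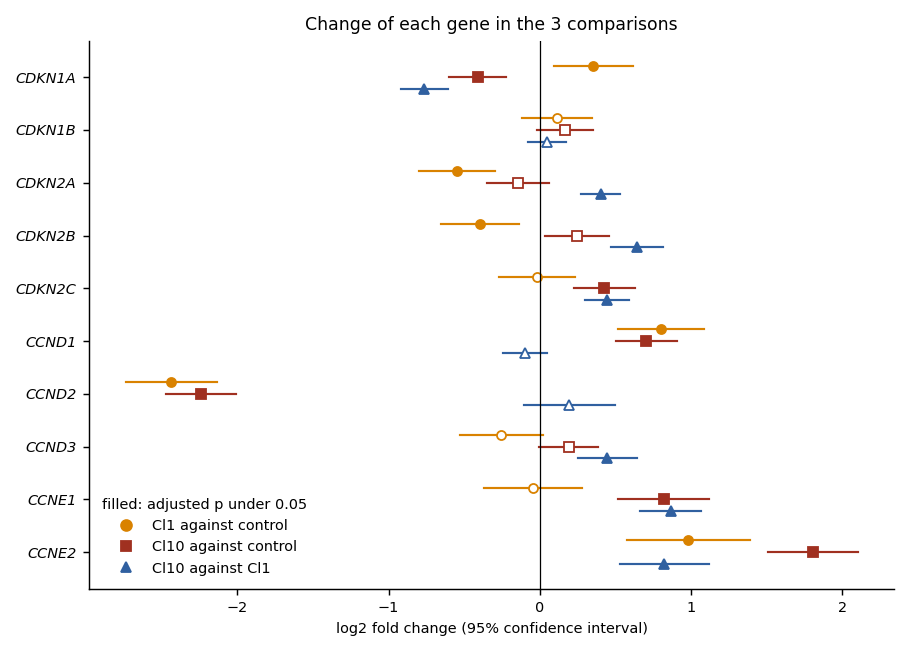
Log2 fold change (x axis) of each of the 10 genes (y axis) in Cl1 against control, Cl10 against control and Cl10 against Cl1, with 95% confidence intervals as lines; filled symbols have an adjusted p under 0.05 by edgeR. CCND2 lies near -2.44 and -2.24 in both clones, and CDKN1A lies on opposite sides of 0.

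Per length, with all exons counted, the members stood in nearly the same order in the 3 groups. In the control, CCND1 had the highest level (92.0 RPKM), followed by CDKN1A (51.7), CDKN2A (37.9), CDKN2C (18.8) and CCND3 (8.44). CDKN2B (6.20) and CDKN1B (5.99) overlapped between libraries, as did CCNE1 (3.48) and CCND2 (3.15), and CCNE2 was lowest (0.570). In both clones CCND2 took the lowest place, at 0.577 RPKM in Cl1 and 0.657 in Cl10, below CCNE2. CDKN2B and CDKN1B changed places in Cl1, where CCND3 and CDKN1B overlapped. Annotated length weighs on this order: with canonical transcripts CDKN2A (150 RPKM) stood above CCND1 (103) in the control, and below it in both clones.

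The rest of the G1 machinery is given by lists. Of 28 S-phase genes known to be driven by E2F, 20 were higher and 3 lower in Cl10, where 20.6% and 21.8% of all genes were, and their median log2 fold change was 0.54 against -0.01 over all genes tested. In Cl1 2 of the 28 were higher and 2 lower, with a median of 0.01, where 12.4% and 12.8% of all genes were. In both clones these numbers moved when a library was left out, as did those of all genes. Against Cl1, Cl10 had 22 of the 28 higher and 2 lower, where 24.9% and 24.1% of all genes were. FEN1, a flap endonuclease of DNA replication, rose by 1.00 in Cl1 and by 1.47 in Cl10 (adjusted p = 0.000381 and 0.000107). TYMS (0.86), which encodes thymidylate synthase, MCM4 (0.97), a subunit of the replicative helicase, and UHRF1 (0.82), which maintains DNA methylation, rose in Cl10 and did not pass in Cl1.

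Among 16 pocket proteins, E2F and partner genes, 6 were higher (37.5%) and 1 lower (6.25%) in Cl10, and 3 were higher (18.8%) and 2 lower (12.5%) in Cl1, where 20.6% and 21.8%, and 12.4% and 12.8%, of all genes were. E2F1, an activator E2F, rose by 1.08 in Cl10, and E2F8, a repressor of the family, by 0.69. E2F2 rose in both clones (0.65 in Cl1, 0.52 in Cl10) and E2F5 fell in both (-0.79 and -1.21), while E2F7 fell in Cl1 (-0.73). Of 9 kinases and partners of G1, 2 were higher and 5 lower in Cl10, and 3 were lower and 6 did not pass in Cl1. CDK6, a kinase that cyclin D activates, rose by 1.00 in Cl10, and CDC25A, the phosphatase that activates CDK2, rose by 0.86. CDK2 itself was lower in both clones (-0.38 and -0.47), as were CDK7 (-0.82 and -0.48) and MNAT1 (-0.41 and -0.33), both parts of the CDK-activating kinase. The median of the 50 genes nearest to CDK2 was -0.49 in Cl10, and with it subtracted the value of CDK2 in Cl10 was 0.02.

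Of 21 G2 and M genes, 3 were higher (14.3%) and 5 lower (23.8%) in Cl10, and 5 were lower (23.8%) and 16 did not pass in Cl1, with medians of -0.01 and -0.23. Of all genes 20.6% were higher and 21.8% lower in Cl10, and 12.4% and 12.8% in Cl1. BUB1 (-0.48 in Cl1, -0.34 in Cl10) and AURKB (-0.53 and -0.35), kinases of the spindle checkpoint and of chromosome segregation, fell in both clones, and the mitotic kinesin CENPE fell in Cl1 (-0.51). FOXM1 (0.63), a transcription factor of G2 genes, and the proliferation marker MKI67 (0.51) rose in Cl10. Against Cl1, 12 of the 21 were higher in Cl10 and 9 did not pass, with a median of 0.24, where 24.9% of all genes were higher. The difference between this list and the S-phase list was not tested.

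**Figure D5:**
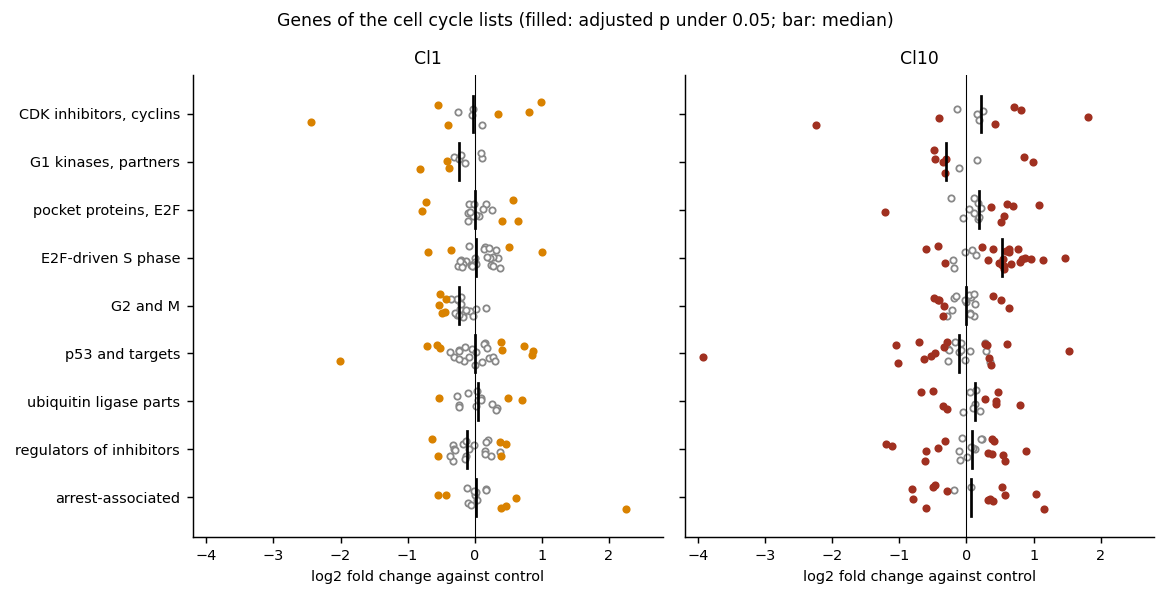
Log2 fold change against control (x axes) of the genes of 9 lists (rows) in Cl1 (left) and Cl10 (right); each point is a gene, filled where its adjusted p is under 0.05 by edgeR, and black bars are the list medians. In Cl10 the E2F-driven S-phase list lies to the right, with a median of 0.54, and in Cl1 its median is 0.01.

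CDKN1A is a p53 target, and 27 of 28 listed p53 genes were tested. In Cl10 6 were higher (22.2%) and 9 lower (33.3%), where 20.6% and 21.8% of all genes were. In Cl1 5 were higher (18.5%) and 4 lower (14.8%), where 12.4% and 12.8% of all genes were. GDF15, a stress-induced cytokine, fell by 2.01 in Cl1 and by 3.92 in Cl10. SESN2, a stress-induced inhibitor of mTORC1 signalling, also fell in both (-0.71 and -1.05), FDXR, a mitochondrial reductase, fell in Cl10 (-1.03), TP53I3 rose in both (0.87 and 1.52), and SPATA18 rose in Cl1 (0.86). In both clones these counts moved when 1 library was left out, as did those of all genes. Against Cl1, 11 of the 27 were lower in Cl10 (40.7%) and 3 higher (11.1%), where 24.1% and 24.9% of all genes were. Their median log2 fold change was -0.0082, against -0.0012 over all genes tested. CDKN1A, outside this list, was also lower.

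Of 15 parts of the ubiquitin ligases that degrade these inhibitors and cyclins, 5 were higher (33.3%) and 4 lower (26.7%) in Cl10 and 2 were higher (13.3%) and 1 lower (6.67%) in Cl1. Of all genes 20.6% and 21.8% were in Cl10, and 12.4% and 12.8% in Cl1, so the Cl1 shares of this list are near those of all genes. FBXW7, which targets cyclin E for degradation, rose in both clones (0.49 and 0.48), as did DDB1 (0.70 and 0.80), the adaptor of CUL4 ligases. CKS1B (-0.50), a cofactor in p27 degradation, and RBX1 (-0.68), the RING subunit of cullin ligases, fell in Cl10, and the deubiquitinase USP28 fell in both (-0.53 and -0.35). Of 22 transcriptional regulators of CDK inhibitor genes, 7 were higher (31.8%) and 6 lower (27.3%) in Cl10, and 3 were higher (13.6%) and 2 lower (9.09%) in Cl1, again near the shares of all genes in Cl1. The Polycomb protein CBX7 fell in both clones (-0.55 and -1.11), and 2 T-box repressors of CDK inhibitor genes parted in Cl10, TBX2 lower (-1.20) and TBX3 higher (0.88). ETS1 fell in Cl1 (-0.64), and the histone demethylase KDM6B fell in Cl10 (-0.62).

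Of the CDK inhibitor genes outside the 10, CDKN1C and CDKN2D passed in the same direction in both clones, against the same control libraries. CDKN1C, which encodes p57, rose in both (0.61 and 0.35), CDKN2D, which encodes p19INK4d, fell in both (-0.51 and -0.40), and the antisense RNA gene CDKN2B-AS1, with 26 to 51 raw counts, did not pass. Of 15 genes associated with growth arrest, CDKN1C among them, 7 were higher (46.7%) and 6 lower (40%) in Cl10, and 4 were higher (26.7%) and 2 lower (13.3%) in Cl1, where the shares of all genes were again 20.6% and 21.8%, and 12.4% and 12.8%. The list was not sorted by the direction of each gene in arrest, so these counts do not speak for more or less arrest. IGFBP3, a binding protein of insulin-like growth factors, rose in both clones (2.25 and 1.04), and the chemokine gene CXCL8 rose in Cl10 (1.16). IL6 (-0.81) and TXNIP (-0.79), an inhibitor of thioredoxin, fell in Cl10.

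Over the 6 libraries, the genes whose log2 CPM ran most like that of CDKN1A, among 11654 with a mean of at least 5 CPM, were SERPINB13, FAM160B2 and CAPN12 (Pearson's r of 0.998, 0.998 and 0.997). For CCND2 they were PARP8, GTF2F2 and ARTN (0.999, 0.998 and 0.998), and for CCNE2 RBBP4, FUBP1 and FAM111B (0.999, 0.999 and 0.998). With 6 libraries in 3 groups that share depth and processing, 248, 339 and 498 genes had an r over 0.95 with CDKN1A, CCND2 and CCNE2, so these names are a description only.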

How the data were processed

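RNA-seq counts of 6 A253 libraries were used, and the 4 libraries of the SOX2 experiment are left out. The deposited values are raw read counts per gene, which the authors obtained by aligning to hg38 with HISAT2 and counting with HTSeq; the submitters' processing notes list StringTie in its place. The annotation, the strand setting and the handling of reads that match several genes were not stated, so overlapping and antisense genes carry that uncertainty. Columns were matched to samples by name, and 58207 of the 58735 identifiers were found in GENCODE v44.

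Each clone was compared with the control, and Cl10 with Cl1, with edgeR 4.0.16 in R 4.3.3 (filterByExpr, TMM, glmQLFit, glmQLFTest) on the libraries of that comparison, with Benjamini-Hochberg adjustment over all genes tested. A gene passed at an adjusted p under 0.05. Standard errors were derived from the F statistic (the absolute log2 fold change over its square root), and 95% confidence intervals come from them. Normalised counts were scaled with TMM to the mean of the library totals. RPKM used all annotated exons of a gene. Replicates of each group differed beyond counting error in a chi-square test (23.6% to 58.5% of genes at an unadjusted p under 0.05) and were counted separately. Scripts were tested on simulated data. Alternatives were DESeq2 1.42.0, other scalings, no filter, 1 fit over 6 libraries, a replicate block, a 2-fold limit, the median of the 50 nearest genes subtracted, and each library left out. Fits without a library leave 1 in a group, which is assumed to vary like the other group.

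The members and lists were chosen with earlier results of these data known. Named were all members, DUSP1, every gene of a list of up to 4, and otherwise up to 5 genes a list with a mean of at least 1 CPM that passed in a clone and had the largest absolute log2 fold change, with values given where they passed; 1 gene that met this rule is not reported here. Promoter windows come from RefSeq (GRCh38.p14), and 7 of the 10 members matched. Only windows of CCNE1, CDKN1A and CDKN2A are shown. Among those not shown, windows 1 and 3 of CDKN2C each hold 1 E-box. CCND1 and CCND2 did not match, and CCNE2 was left out of the search.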

Additional observations from a re-analysis of the deposited data

Results flagged for a closer look

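The effects in the 2 clones differed, by edgeR's test of Cl10 against Cl1 itself, for 7 members, for DUSP1 and for 41 other named genes. Members and named list genes came to 61, and 49% of all genes tested differed. Most named genes were picked for a large change in a clone of these data, so their count is no test. The causes were not tested. Among the members, the log2 fold change of Cl10 against Cl1 was -0.76 for CDKN1A, 0.40 for CDKN2A, 0.64 for CDKN2B, 0.44 for CDKN2C, 0.45 for CCND3, 0.87 for CCNE1 and 0.82 for CCNE2. That of CDKN1A separates a rise in Cl1 from a fall in Cl10, and that of CDKN2A and CDKN2B stands beside a median of 0.33 over their 50 nearest genes. DUSP1, the targeted gene, was higher in Cl10 than in Cl1 by 0.48.

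Of the genes beside the members, MTAP differed by 1.14 and CDKN1C by -0.26. Among the G1 kinases and E2F genes, the values were 0.89 for CDK6, 0.34 for CDK7, 0.76 for CDC25A, 0.95 for E2F1, -0.42 for E2F5, 0.84 for E2F7 and 0.79 for E2F8. The 4 S-phase genes given here, picked for their change in a clone, were higher in Cl10, MCM4 by 0.62, TYMS by 0.85, UHRF1 by 0.56 and FEN1 by 0.48. So were MKI67 by 0.58, CENPE by 0.23 and FOXM1 by 0.61.

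Among p53 genes the differences were -1.91 for GDF15, -0.33 for SESN2, 0.65 for TP53I3, -0.79 for FDXR and -1.11 for SPATA18. Ligase parts gave -0.23 for CKS1B, -0.58 for RBX1 and 0.18 for USP28. Regulators of the inhibitors gave -0.55 for CBX7, -1.05 for TBX2, 0.73 for TBX3, 0.77 for ETS1 and -0.49 for KDM6B. Arrest-associated genes gave -0.67 for TXNIP, -0.80 for IL6, 1.21 for CXCL8 and -1.21 for IGFBP3. Of the cell type markers, KRT17 differed by -0.78, CDH1 by -0.49, ITGA6 by 0.41, DSP by -0.60, COL1A1 by -0.78, COL3A1 by -0.36, CD14 by -0.38 and VWF by -1.05.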

How the results depend on the processing

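Of 19 member changes that passed, 13 passed in every alternative run other than the 2-fold limit; the exceptions, CDKN1A and CDKN2B (Cl1), CDKN2A (Cl1, and Cl10 against Cl1), and CDKN1A and CDKN2C (Cl10), are given with their values in the report. With the 2-fold limit, 1 (Cl1), 2 (Cl10) and 0 (Cl10 against Cl1) members passed by edgeR, as by DESeq2. Without 1 library, 3 to 7 members passed in Cl1, 4 to 10 in Cl10 and 7 to 8 in Cl10 against Cl1. Over all genes, 5064, 8439 and 9706 passed in the 3 comparisons. With the 2-fold limit these were 1520, 2667 and 2131, or 1067, 2124 and 1546 by DESeq2. Against the control, fewer of all genes passed in each clone without a library of that clone, and more passed without a control library. The number of E2F-driven genes higher in Cl10, 20 above, was 18 to 20 in the other runs on all libraries without the 2-fold limit. With that limit it was 2, and without 1 library it moved further. Values that changed sign had not passed in Cl1: with the local median subtracted, CDKN1B was -0.023, CDKN2C 0.0095 and CCNE1 0.063, and without 1 library CDKN2C ran from -0.11 to 0.075 and CCNE1 from -0.20 to 0.12. The same subtraction turned CDK2 (0.019) and IL6 (0.32) in Cl10, and CKS1B (0.11), CBX7 (0.063) and IL6 (0.18) in Cl10 against Cl1, none of which was then below an adjusted p of 0.05. Scaling by library totals gave means in Cl10 of 3608 for CDKN1B, 4436 for CDKN2C, 41461 for CCND1, 3226 for CCND3 and 509.7 for CCNE2, and 457.0 for CCNE1 in Cl1. With canonical transcript lengths, the shares in control, Cl1 and Cl10 were 78.7%, 89.7% and 85.6% for CCND1, 18.3%, 9.95% and 13.9% for CCND3, 82.3%, 69.8% and 70.2% for CCNE1 and 17.7%, 30.2% and 29.8% for CCNE2, and 2.95% for CCND2 in the control. Replicate numbers did not pair the samples: deviations of same-numbered libraries correlated at -0.27 (control and Cl1), -0.26 (control and Cl10) and 0.01 (Cl1 and Cl10). With the replicate number as a block, 5, 6 and 7 members passed in the 3 comparisons, with CDKN1A in Cl1 lost (adjusted p = 0.118). With the numbers of 1 group crossed, a pairing added after the data were seen, 7 members passed in each clone against the control. Over all genes 6894 passed in Cl1 and 9927 in Cl10 with crossed numbers. With the replicate block these were 4841 and 8681, and 9894 in Cl10 against Cl1. Other causes of these changes were not tested. With 2 libraries a group, precision is set by the spread between libraries rather than by depth.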

Other observations

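The marker lists were read for other cell types. Of 10 squamous and basal epithelial markers, 3 (30%) passed as higher in Cl1 and 0 as lower, where 12.4% and 12.8% of all genes did. The 3 were CDH1 (0.84 on the log2 scale), DSP (0.65) and ITGA6 (0.56). In Cl10 2 were higher (20%), ITGA6 (0.97) and CDH1 (0.35), and 1 was lower (10%), KRT17 (-0.50). Of all genes 20.6% were higher and 21.8% lower in Cl10, so these shares are no larger than those of all genes. Only 3 of 8 fibroblast markers, 3 of 7 leukocyte markers and 3 of 5 endothelial markers were expressed enough to be tested in Cl10, among them COL1A1 (-0.67), COL3A1 (-0.54), CD14 (0.50) and ITGAM (1.10). In Cl1 CD14 (0.87), ITGAM (0.73) and VWF (0.93) were higher. TEK and CDH5, named after their values were seen, passed as higher at means of 0.218 and 0.217 CPM (TEK in both clones, CDH5 in Cl10), and every other gene of these 3 lists had a mean of at most 0.569 CPM.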
